A study of Mus musculus with 12 samples.

Results

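The genes described here are 10 components of the endoplasmic reticulum folding machinery and of the stress response that serves it. They were chosen by symbol, with earlier results of these data known, from a table of 36119 mouse genes. They are Calr, Hsp90b1, Hspa5, Canx, Pdia3, Pdia4, Pdia6, Xbp1, Ddit3 and Atf4. Each symbol had 1 row with signal. Ddit3 had a further row for an overlapping annotation entry, listed at 0 in every library. RNA came from the hippocampus of C57BL/6 mice at postnatal day 70, with 3 libraries in each of 4 groups. Standard saline mice were injected under the skin with 0.15 M saline as pups, on postnatal days 6 and 7 with 2 doses a day spaced by 2 hours, and lived in ordinary cages from day 21. Standard ethanol mice received ethanol at 2.5 g/kg in that saline and the same ordinary cages. Enriched saline and enriched ethanol mice had the same injections as their counterparts but moved on day 21 to large cages with running wheels, toys and added bedding, in single-sex sets of 2 to 6 siblings. All groups were injected as pups, and the sample tags call the injections prenatal although they fell after birth. The labels give neither the sex nor the litter of a mouse, so a p-value reflects only how these libraries spread.

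Proteins that enter the endoplasmic reticulum fold there with the help of chaperones, which hold unfolded chains, and of disulfide isomerases, which form and rearrange disulfide bonds. When unfolded protein builds up, the sensors Ern1, Atf6 and Eif2ak3 start the unfolded protein response, which raises chaperone genes through the factors Atf6 and Xbp1 and slows translation while Atf4 is made. Neurons and secretory cells such as those of the choroid plexus carry a heavy load of membrane and secreted protein. Xbp1 is activated by splicing of its messenger RNA and Atf4 by translation of its own, so a gene-level RNA value does not show the activity of either.

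The element through which Atf6 acts, with the factor NF-Y, is CCAAT separated by 9 bases from CCACG. It was searched on both strands of RefSeq promoter windows, from 250 bases before to 50 bases after each start site (GRCm38.p6), and all 10 genes had a window. The element was present in 5 of them, those of Calr, Hsp90b1, Hspa5, Canx and Pdia6, and in 0.119% of all 32851 windows. These stretches are shown because they are shared by genes whose levels are compared below. Capitals mark the bases of CCAAT and CCACG within the full element, which read ATTGG and CGTGG where the match lies on the opposite strand. Other copies of either motif inside a stretch are in lower case.
Hspa5: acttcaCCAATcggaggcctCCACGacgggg
Pdia6: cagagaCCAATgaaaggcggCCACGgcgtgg
Canx: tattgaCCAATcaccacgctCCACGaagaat
Calr: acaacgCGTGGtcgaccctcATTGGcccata
Hsp90b1: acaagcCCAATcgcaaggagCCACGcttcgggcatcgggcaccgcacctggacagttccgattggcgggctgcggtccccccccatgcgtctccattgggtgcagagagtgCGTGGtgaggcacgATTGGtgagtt

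The stretches run 5′ to 3′ along each gene's strand. They lie at chr2:34772019-34772049 (plus strand) for Hspa5, chr12:17266485-17266515 (plus) for Pdia6, chr11:50325794-50325824 (minus) for Canx, chr8:84847069-84847099 (minus) for Calr and chr10:86705527-86705662 (minus) for Hsp90b1. Hsp90b1 alone among the 10 had 2 matches, starting 212 and 107 bases before its start site and facing opposite ways. In Hspa5 the match began 65 bases before the start site, in Pdia6 98, in Canx 145 and in Calr 162. Neither motif is rare by itself, since CCAAT was in 37.4% of all windows and CCACG in 32.8%. The windows of Pdia3, Pdia4, Xbp1, Ddit3 and Atf4 held no full element. A related element, ATTGG followed after 1 base by CCACG, was in no member window and in 0.0365% of all windows. TGACGTGG, an Xbp1 and Atf6 site, and TGATGNAAN, a site of Atf4 with its partners, were in no member window either, against 0.676% and 3.95% of all windows. A match describes letters only and does not show binding.

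**Figure D1:**
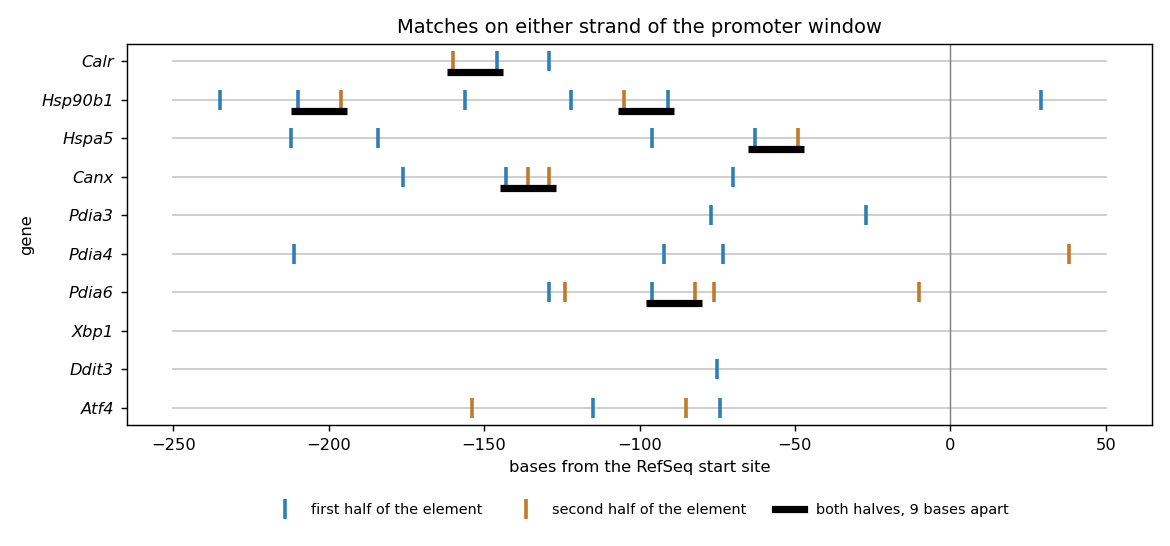
Position of matches in the promoter window of each of the 10 genes, in bases from the RefSeq start site; blue ticks are CCAAT, orange ticks CCACG and black bars the pair 9 bases apart, on either strand. The 6 black bars lie in the windows of Calr, Hsp90b1 (2 bars), Hspa5, Canx and Pdia6.

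Values are the deposited levels, proportional to TPM within a library and so already divided by transcript length. Sequencing depth is unknown. All 9 dentate granule cell markers listed were measured in every group, with summed levels between 194.6 and 369, as hippocampus should show. Enriched saline replicate 2 stood apart: Ttr, the transthyretin gene of choroid plexus, reached 7503 there. The next value was 385, in standard ethanol replicate 1, and the remaining 10 libraries had 20.8 to 118. The 9 choroid plexus markers summed to between 183 and 9200 in enriched saline, 203 and 699 in standard ethanol, 246 and 357 in standard saline and 181 and 223 in enriched ethanol libraries, with 0 of the 9 markers at 0 throughout a group. Myelin markers also differed between libraries. The mean log2 deviation of 7 of them was 0.28, -0.49 and -0.11 in standard saline, 0.41, 0.36 and 0.34 in standard ethanol, -0.09, -0.45 and -0.38 in enriched saline and -0.21, -0.10 and 0.43 in enriched ethanol replicates 1 to 3. Their summed levels ran from 3162 to 5404, 5173 to 5492, 3133 to 3859 and 3748 to 5581 in those groups, with 0 of 7 at 0. Mbp, the myelin basic protein gene, averaged 2113 ± 356 in 6 standard and 1725 ± 339.7 in 6 enriched libraries. In bulk tissue, fewer cells of a type and less RNA per cell cannot be told apart.

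The chaperones were among the more abundant messages of the tissue. Canx, a lectin chaperone anchored in the membrane, averaged 404 ± 24.0 (SD, n = 12), above 98.1% of the 14947 genes tested. Calr, its soluble relative in the lumen, averaged 380 ± 57.4 and lay below Canx in 9 of 12 libraries. Hsp90b1, the Hsp90 of the compartment, followed at 301 ± 38.5 and Hspa5 (BiP), the Hsp70 that binds unfolded chains and keeps the stress sensors silent, at 239 ± 47.3. Hsp90b1 was above Hspa5 in 11 of 12 libraries. The next step down held Atf4 (117 ± 14.8) and Pdia3 (115 ± 9.92), whose order changed between libraries, with Atf4 higher in 5 of 12. Below them came Pdia6 (92.0 ± 11.7), Xbp1 (58.6 ± 5.01), Pdia4 (53.6 ± 6.32) and Ddit3 (44.1 ± 4.77). Even Ddit3, best known as a gene induced by stress, was above 72.7% of genes tested.

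The 10 genes also differed in how much they varied. Hspa5 had the widest spread, with a coefficient of variation of 19.8% over 12 libraries and a highest level 1.71-fold above its lowest, and Calr followed with 15.1%. Canx was the steadiest at 5.94%, and its highest level was 1.21-fold above its lowest. The high values fell in few libraries: 6 of the 10 genes were highest in enriched saline replicate 2, 3 in enriched ethanol replicate 2 and 1, Canx, in enriched ethanol replicate 3. Enriched ethanol replicate 1 was highest for no gene but among the top 3 libraries for 9 of them. The lowest values lay in standard saline replicate 3 and standard ethanol replicate 1 for 4 genes each. Over all 10 genes the mean deviation from the 12-library mean, on the log2(level + 0.5) scale, was 0.23 in enriched saline replicate 2, 0.19 in each of enriched ethanol replicates 1 and 2, between -0.05 and 0.02 in the other 3 enriched libraries, and between -0.18 and -0.03 in the 6 standard libraries.

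**Figure D2:**
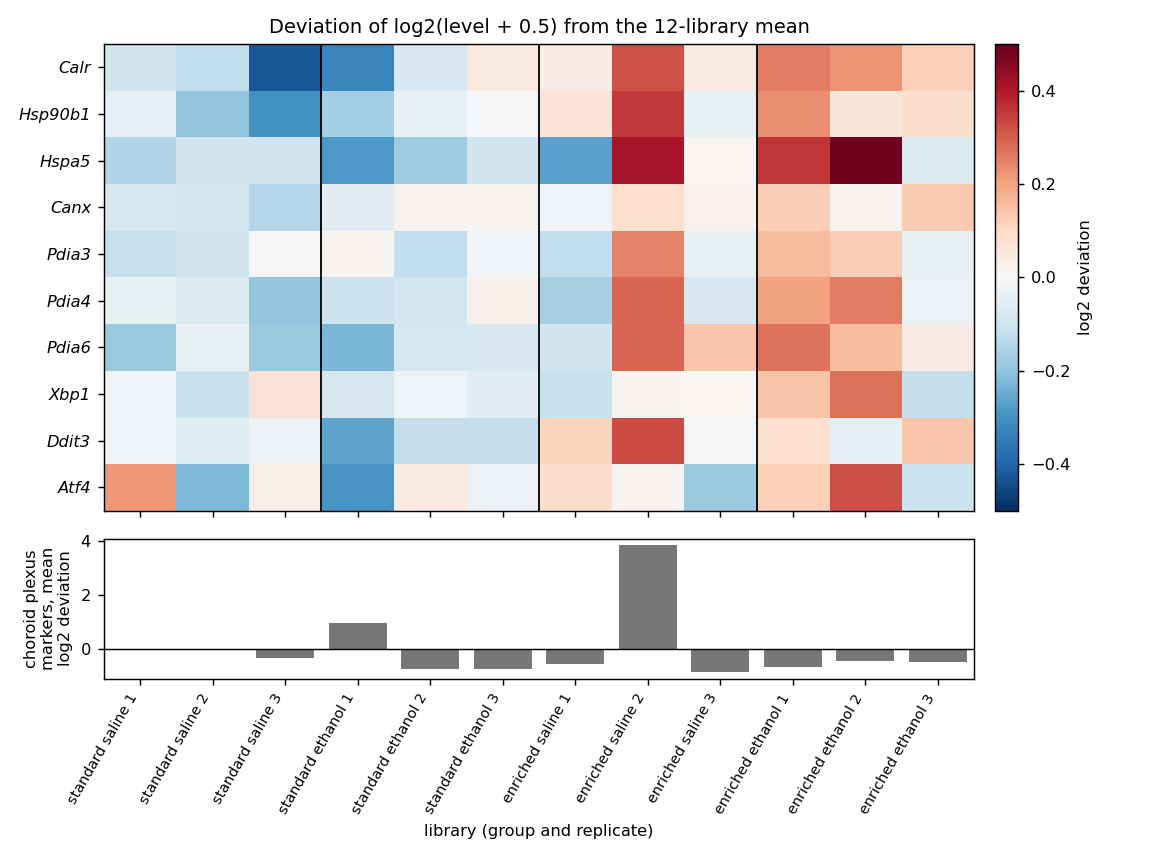
Upper panel, deviation of log2(level + 0.5) of each gene (rows) from its 12-library mean in each library (columns, with vertical lines between groups); lower panel, mean log2 deviation of 9 choroid plexus markers. The columns that are mostly red are enriched saline replicate 2 and enriched ethanol replicates 1 and 2, and the choroid plexus mean is 3.85 in enriched saline replicate 2 and below 0 in all 3 enriched ethanol libraries.

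The first comparison is that of housing. Averaged over saline and ethanol mice, all 10 genes had higher means in enriched than in standard cages, from 1.05-fold for Xbp1 to 1.26-fold for Calr. None passed limma's Benjamini-Hochberg adjusted threshold of 0.05 over all genes tested, which 0.0201% of genes passed. At an unadjusted p under 0.05, 6 of the 10 were higher (Calr, Hsp90b1, Hspa5, Canx, Pdia6 and Ddit3) and 0 lower, where 7.96% of all genes tested were at that p, 4.14% higher and 3.82% lower. The median log2 fold change of the 10 genes was 0.18, and that of all genes tested was 0.00. These genes are partners in 1 pathway and were measured in the same libraries, so they do not count as 10 separate observations. They were chosen with earlier results of these data known, and the count at an unadjusted p was chosen after seeing the data. Here and below, that count beside the share of all genes is a description and not a test of the 10 genes.

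Both lectin chaperones, which bind newly made glycoproteins, had higher means in enriched mice. Calr was at 351, 346 and 280.2 in standard saline, 300.0, 357 and 389.5 in standard ethanol, 386, 469 and 388 in enriched saline and 449, 439.9 and 409 in enriched ethanol replicates 1 to 3. Standard ethanol replicate 3 was the 1 standard library above any enriched one, slightly exceeding enriched saline replicates 1 and 3. The Calr means were 424 ± 34.3 in 6 enriched and 337 ± 40.0 in 6 standard libraries, or 0.33 on the log2 scale (SE 0.08, limma adjusted p = 0.374). It had the smallest p of the 10 and ranked 51 among all genes tested. Canx was at 379.7, 378 and 365 in standard saline, 389, 408 and 407 in standard ethanol, 400.4, 427 and 410.2 in enriched saline and 440.1, 407 and 442 in enriched ethanol. Standard saline libraries were lower than all others, while the standard ethanol and enriched ranges overlapped. Its log2 fold change was small, 0.12 (SE 0.04, limma adjusted p = 0.473).

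Hspa5 and Hsp90b1, the general chaperones of the lumen, also had higher means, but their libraries spread differently. Hspa5 stayed between 193 and 219.5 in all 6 standard libraries. In enriched saline mice it was at 195, 313 and 237, and in enriched ethanol mice at 301, 329 and 224. The higher mean thus came from 3 libraries above 300 units, while enriched saline replicate 1 lay inside the standard range and enriched ethanol replicate 3 lay just above it. The Hspa5 log2 fold change was 0.30 (SE 0.11, limma adjusted p = 0.585). Hsp90b1 was at 290.3, 260.0 and 242 in standard saline, 264, 291 and 297 in standard ethanol, 312, 382 and 291 in enriched saline and 350.4, 312 and 317 in enriched ethanol. Enriched saline replicate 3 was the 1 enriched library within the standard range, and the log2 fold change was 0.25 (SE 0.07, limma adjusted p = 0.448).

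Of the disulfide isomerases, Pdia6 had the smallest p. It was at 80.3, 89.2 and 80.2 in standard saline, 77.9, 86.0 and 86.5 in standard ethanol, 85.2, 112 and 100.7 in enriched saline and 110.5, 102 and 94.1 in enriched ethanol. All enriched libraries other than enriched saline replicate 1 lay above every standard one, and the log2 fold change was 0.27 (SE 0.07, limma adjusted p = 0.415). Pdia4 was between 46.6 and 54.2 in standard libraries and reached 65.3, 61.3 and 63.8 only in enriched saline replicate 2 and enriched ethanol replicates 1 and 2. The other 3 enriched libraries, at 47.5, 50.4 and 52.2, lay within the standard range. Pdia3, which works with Calr and Canx on glycoproteins, ran between 106 and 116 in standard libraries and exceeded that in the same 3 enriched libraries, at 137, 128 and 125. The log2 fold changes of Pdia4 and Pdia3 were 0.16 (SE 0.08) and 0.11 (SE 0.06), with limma adjusted p of 0.658 and 0.704.

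The stress transcription factors were less uniform. Ddit3 (CHOP), which promotes cell death under prolonged stress, was at 43.5, 42.1 and 43.2 in standard saline, 36.5, 40.4 and 40.4 in standard ethanol, 47.4, 55.2 and 43.6 in enriched saline and 46.5, 42.5 and 48.4 in enriched ethanol. Within each injection group the enriched libraries were all above the standard ones, and the log2 fold change was 0.20 (SE 0.06, limma adjusted p = 0.501). Xbp1 was between 54.0 and 61.4 in standard libraries and left that range in enriched ethanol replicates 1 and 2, at 64.5 and 70.8, while enriched ethanol replicate 3 (53.8) and enriched saline replicate 1 (53.98) lay at its lower edge. Atf4 was as variable in standard libraries (94.8 to 135) as in enriched ones (102 to 145). The log2 fold changes of Xbp1 and Atf4 were 0.07 (SE 0.06) and 0.08 (SE 0.10), with 95% intervals of -0.07 to 0.21 and -0.13 to 0.29.

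**Figure D3:**
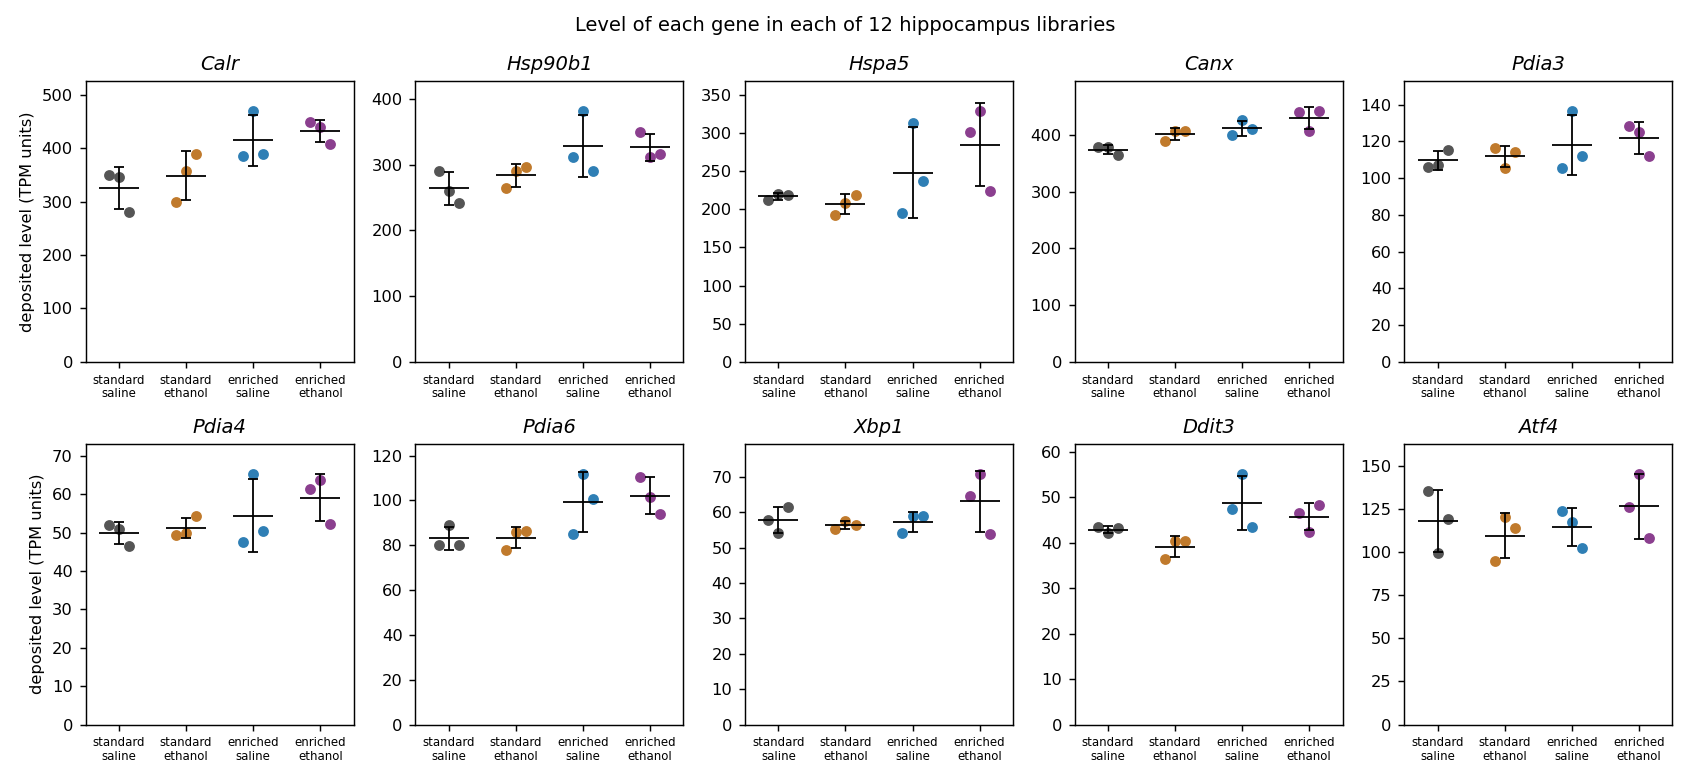
Level of each of the 10 genes (deposited values in TPM units, vertical axes from 0) in the 4 groups; points are the 3 libraries of a group, left to right replicates 1 to 3, and the bar with whiskers is their mean ± SD. Calr, Hsp90b1 and Pdia6 sit higher in both enriched groups, and Hspa5 splits the enriched libraries into 3 above 300 units and 3 between 195 and 237.

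Among saline mice alone, enriched against standard cages gave 8 of 10 positive fold changes. At an unadjusted p under 0.05, 4 were higher (Calr, Hsp90b1, Canx and Pdia6) and 0 lower, beside 10% of all genes at that p, 5.43% higher and 4.60% lower. None passed the limma adjusted threshold, which 0.0268% of genes passed. Libraries did not overlap for 4 genes, all higher in enriched mice (Calr, Hsp90b1, Canx and Ddit3), beside 7.40% of all genes higher and 6.57% lower. The log2 fold changes were 0.35 (SE 0.11) for Calr, 0.31 (SE 0.10) for Hsp90b1, 0.25 (SE 0.10) for Pdia6, 0.17 (SE 0.09) for Ddit3 and 0.14 (SE 0.05) for Canx. Hspa5, Pdia4 and Pdia3 had 0.17 (SE 0.16), 0.11 (SE 0.11) and 0.10 (SE 0.09), while Xbp1 and Atf4 had -0.01 (SE 0.09) and -0.04 (SE 0.14). The Xbp1 value turns to 0.02 when columns are rescaled to a common sum.

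This comparison rested in large part on enriched saline replicate 2, the library with the high choroid plexus markers. Without it the median log2 fold change of the 10 genes was 0.04 in place of 0.15, 5 were positive, and Calr was the 1 gene left at an unadjusted p under 0.05. Hspa5, Pdia3 and Pdia4 then had log2 fold changes of -0.02, -0.01 and -0.02, and Ddit3 0.08, whereas Calr, Hsp90b1, Pdia6 and Canx had 0.26, 0.19, 0.16 and 0.11. Without standard saline replicate 3, the lowest library for Calr and Hsp90b1, 1 gene was left at that p as well, Hsp90b1. The myelin marker mean was -0.45 in enriched saline replicate 2, -0.38 in enriched saline replicate 3 and -0.49 in standard saline replicate 2. The mean deviation of the 10 genes was 0.23, -0.01 and -0.11 in these libraries. The 7 astrocyte markers summed to 1952 to 2051 in enriched saline and 2117 to 2692 in standard saline libraries, with 0 of 7 at 0. Gfap, an astrocyte gene, was at 166 to 202 and 220 to 267 in these groups. The 6 meningeal fibroblast markers summed to 95.4 to 165.9 in enriched saline and 67.5 to 91.5 in standard saline libraries. For the 6 striatum markers the sums were 66.7 to 88.5 and 48.8 to 58.3. No marker of these 2 lists was at 0 throughout a group. The part of RNA from any of these cell types or tissues in the values was not tested.

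Among ethanol mice all 10 fold changes were positive. Choroid plexus markers were high in 1 library of this comparison, standard ethanol replicate 1, with a mean log2 deviation of 0.97. Myelin marker means differed too, at 0.34 to 0.41 in the 3 standard ethanol libraries and -0.21 and -0.10 in enriched ethanol replicates 1 and 2. In those 2 enriched libraries 10 and 9 of the genes were above their 12-library means. In enriched ethanol replicate 3 the myelin mean was 0.43. There Hspa5, Pdia4, Pdia3, Xbp1 and Atf4 were within or near the standard range. Calr (409), Hsp90b1 (317), Pdia6 (94.1) and Ddit3 (48.4) were above every standard library there, and Canx (442) had its highest value of the 12 libraries. The 7 pyramidal cell markers had means of -0.06, -0.04 and -0.24 in standard ethanol and 0.02, 0.20 and 0.16 in enriched ethanol libraries, with summed levels of 335 to 410.3 and 389 to 464 and 0 of 7 at 0. The 6 meningeal fibroblast markers summed to 119.2 to 161.6 in standard ethanol and 91.95 to 117.4 in enriched ethanol libraries. For the 7 endothelial cell markers the sums were 165.4 to 168.5 and 128.9 to 165.1. No marker of these lists was at 0 throughout a group. The part of these cell types in the result was not tested. At an unadjusted p under 0.05, 4 genes were higher (Calr, Hspa5, Pdia6 and Ddit3) and 0 lower, beside 5.57% of all genes at that p, 2.91% higher and 2.66% lower. None passed the limma adjusted threshold, which 0.00669% of genes passed. Libraries did not overlap for 5 genes, again all higher (these 4 and Hsp90b1), beside 6.07% of all genes higher and 5.97% lower. The log2 fold changes were 0.44 (SE 0.16) for Hspa5, 0.32 (SE 0.11) for Calr, 0.29 (SE 0.10) for Pdia6, 0.22 (SE 0.09) for Ddit3, 0.20 (SE 0.10) for Hsp90b1 and 0.10 (SE 0.05) for Canx. Pdia4, Atf4, Xbp1 and Pdia3 had 0.20 (SE 0.11), 0.20 (SE 0.14), 0.15 (SE 0.09) and 0.12 (SE 0.09).

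Single libraries moved this comparison too. Standard ethanol replicate 1 had the lowest Calr, Hspa5, Pdia6 and Ddit3 of its group, and without it 0 genes stayed at an unadjusted p under 0.05, with a median log2 fold change of 0.16 in place of 0.20. Leaving out enriched ethanol replicate 1 also left 0 genes, with a median of 0.19. Enriched ethanol replicate 3 went the other way: without it the median was 0.27 and 6 genes were at that p, with Hspa5, Atf4 and Xbp1 at log2 fold changes of 0.61, 0.31 and 0.26. The count was also 6 without enriched saline replicate 2, a library outside the comparison that adds to the shared spread. That library left the averaged comparison less changed, since without it all 10 genes stayed positive with a median of 0.13, and the same 6 genes stayed at an unadjusted p under 0.05.

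**Figure D4:**
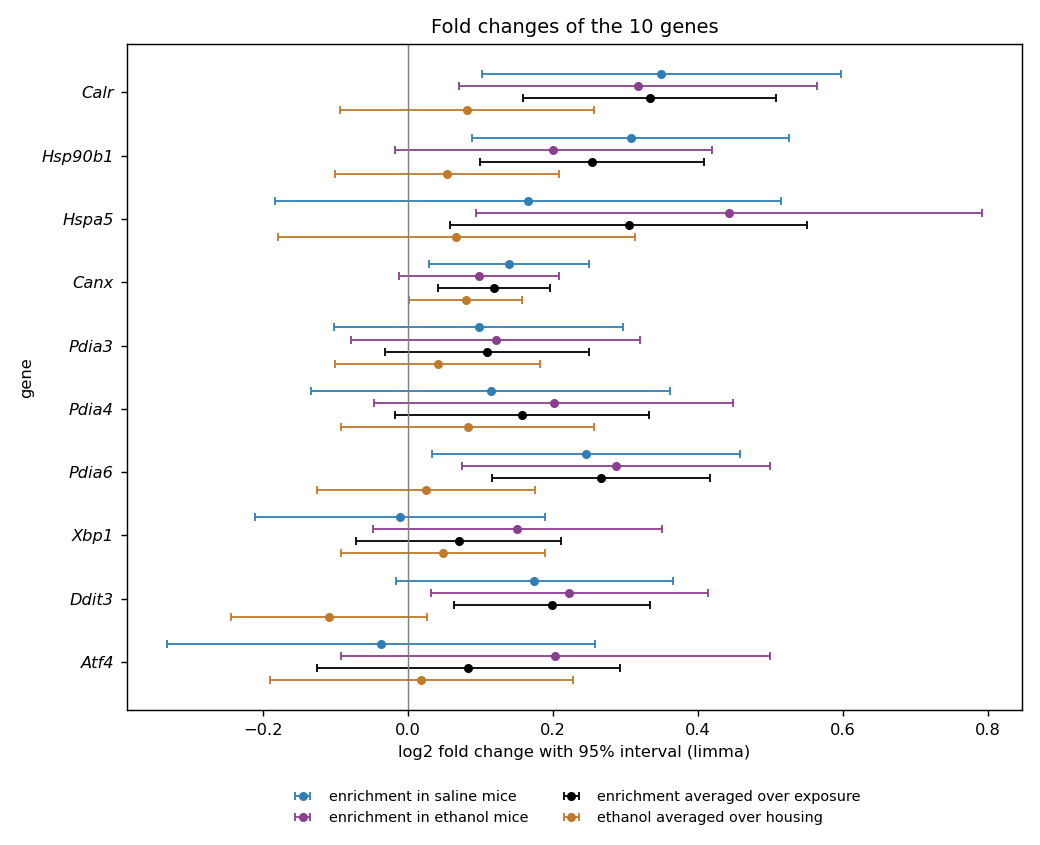
Log2 fold change of each gene with its 95% interval from limma, for enrichment in saline mice (blue), in ethanol mice (purple) and averaged over both (black), and for ethanol averaged over housing (orange). The black points are all above 0, and 6 of their intervals (Calr, Hsp90b1, Hspa5, Canx, Pdia6 and Ddit3) exclude 0 before adjustment over all genes.

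**Figure D5:**
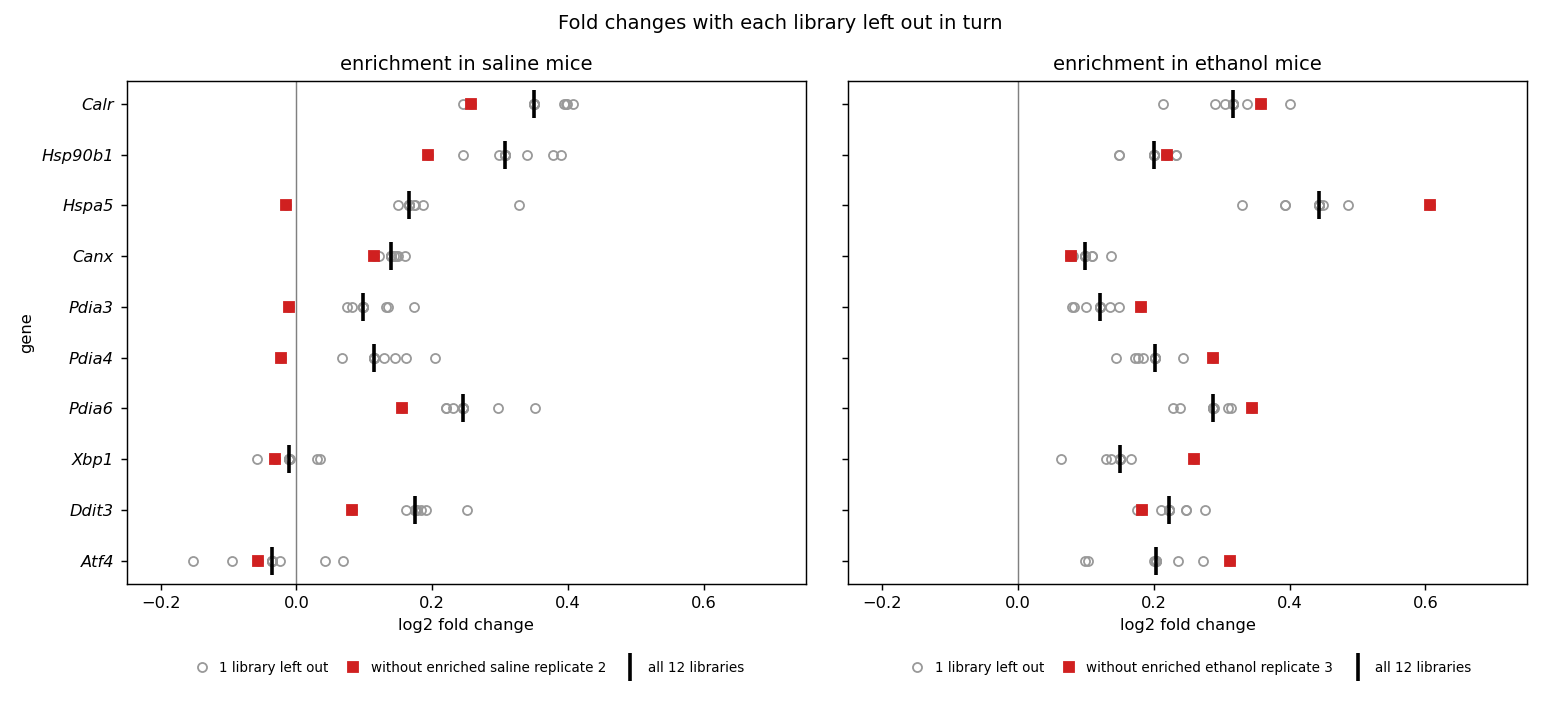
Log2 fold change of each gene for enrichment in saline mice (left) and in ethanol mice (right), with all 12 libraries (black bar) and with 1 library left out in turn (open circles). Red squares leave out enriched saline replicate 2 (left), where Hspa5, Pdia3 and Pdia4 fall to -0.02, -0.01 and -0.02, and enriched ethanol replicate 3 (right), where Hspa5 reaches 0.61.

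For early ethanol averaged over housing, the log2 fold changes ran from -0.11 for Ddit3 (SE 0.06) to 0.08 for Pdia4 (SE 0.08), with a median of 0.05. None passed the limma adjusted threshold, which 0.0134% of genes passed. The 1 gene at an unadjusted p under 0.05 was Canx, with 0.08 (SE 0.04), beside 8.02% of all genes at that p, 3.97% higher and 4.05% lower. Canx averaged 416 ± 21.03 in the 6 ethanol libraries and 393 ± 23.1 in the 6 saline libraries, which overlapped. Ddit3 was the 1 member with a lower mean after ethanol, 42.5 ± 4.35 against 45.8 ± 4.93.

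In standard cages, ethanol and saline libraries did not overlap for 2 of the 10 genes. Canx was higher after ethanol (389 to 408 against 365 to 379.7) and Ddit3 lower (36.5 to 40.4 against 42.1 to 43.5), where 6.11% of all genes did not overlap on the higher and 5.99% on the lower side. Their log2 fold changes were 0.10 (SE 0.05) and -0.13 (SE 0.09). Hsp90b1 had the largest positive value, 0.11 (SE 0.10). Tissue markers separated these groups as well. The 9 dentate granule cell markers summed to 260 to 369 in standard saline and 195 to 241 in standard ethanol libraries. Those of 6 meningeal fibroblast markers were 67.5 to 91.5 and 119 to 162. Those of 7 endothelial cell markers were 130.9 to 164.6 and 165.4 to 168.5, with 0 markers of any of these lists at 0. The part of these cell types in the values was not tested. Of the 10 genes 0 passed the limma adjusted threshold, which 0.0134% of genes passed, and 0 were at an unadjusted p under 0.05, beside 7.39% of all genes, 3.75% higher and 3.64% lower.

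In enriched cages, ethanol against saline gave a median log2 fold change of 0.06. Ddit3 was the 1 gene with a negative value, smaller in size than its SE, and Hsp90b1 was at 0.00. Hspa5 had 0.21 (SE 0.16), Atf4 0.14 (SE 0.14) and Xbp1 0.13 (SE 0.09), while Ddit3 had -0.08 (SE 0.09). Groups overlapped for all 10 genes, beside 7.78% of all genes that did not overlap on the higher and 7.45% on the lower side. Of the 10 genes 0 passed the limma adjusted threshold, which 0% of genes passed, and 0 were at an unadjusted p under 0.05, beside 7.76% of all genes, 3.85% higher and 3.91% lower. Without enriched saline replicate 2, Hspa5 had 0.39 and Ddit3 0.01, and both Hspa5 and Pdia4 were at an unadjusted p under 0.05. Without enriched ethanol replicate 3 that held for Hspa5 and Xbp1. The 7 astrocyte markers summed to 2199 to 2381 in enriched ethanol and 1952 to 2051 in enriched saline libraries, with 0 of 7 at 0. The part of astrocyte or choroid plexus RNA in this comparison was not tested.

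Whether ethanol altered the response to housing was tested as an interaction. Hspa5, Atf4 and Xbp1 had the largest positive values on the log2 scale, 0.28 (95% interval -0.22 to 0.77), 0.24 (-0.18 to 0.66) and 0.16 (-0.12 to 0.44), and Hsp90b1 the lowest, -0.11 (-0.42 to 0.20). Of the 10 genes 0 passed the limma adjusted threshold, which 0.0134% of genes passed, and 0 were at an unadjusted p under 0.05, beside 7.41% of all genes, 3.42% higher and 3.99% lower. Each of these intervals includes 0, and for Hspa5, Atf4 and Xbp1 the upper bound is above that gene's averaged housing difference. Hspa5 without enriched saline replicate 2 (0.46) and Xbp1 without enriched ethanol replicate 3 (0.27) were at an unadjusted p under 0.05.

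Other genes of the pathway were read from lists. Of 16 tested chaperones and folding enzymes induced by the unfolded protein response, 11 had higher means in enriched mice, beside 7469 of all 14947 genes tested. Their median log2 fold change for enrichment averaged over exposure was 0.06. At an unadjusted p under 0.05, 1 was higher, beside 4.14% of all genes. It was Sdf2l1, a partner of Hspa5 (log2 fold change 0.60, SE 0.26). Hyou1, an Hsp70 relative of the lumen, came next with 0.11 (SE 0.05). By exposure, the list read as follows. In saline mice 12 of 16 were positive with a median of 0.08, beside 7610 of 14947 genes. At an unadjusted p under 0.05, 2 were higher, Sdf2l1 (0.98, SE 0.37) and Dnajb11 (0.20, SE 0.09), beside 5.43% of all genes. Without enriched saline replicate 2, which had the highest Sdf2l1, at 18.3, 10 of 16 were positive, the median was 0.03 and 0 were higher at that p. In ethanol mice 6 of 16 were positive with a median of -0.02, beside 7195 of 14947 genes. At that p 0 were higher and 1 was lower, beside 2.91% and 2.66% of all genes. The lower 1 was Dnajc10 (-0.23, SE 0.08), a disulfide reductase, while Hyou1 had 0.13 (SE 0.07). Leaving out standard ethanol replicate 3 or enriched ethanol replicate 1 gave 9 of 16 positive there. In the interaction 7 of 16 were positive with a median of -0.10, beside 7229 of 14947 genes. At an unadjusted p under 0.05, 1 was lower, beside 3.99% of all genes, Dnajc10 (-0.27, SE 0.11), followed by Ppib (-0.21, SE 0.12). Of 12 tested genes of endoplasmic reticulum-associated degradation, which removes misfolded chains, Sel1l was higher and Edem2 lower at that p for enrichment averaged over exposure. The shares of all genes were 4.14% higher and 3.82% lower, and the median of the 12 was 0.02. Sel1l, the scaffold of the membrane ubiquitin ligase, was at 86.8, 94.9 and 94.1 in standard saline, 92.8, 93.7 and 86.4 in standard ethanol, 109, 107 and 102 in enriched saline and 103, 103 and 104 in enriched ethanol libraries. All 6 enriched libraries were above all 6 standard ones, a separation that 0.234% of genes tested showed in this direction. Its log2 fold change was 0.19 (SE 0.04, limma adjusted p = 0.251), so it did not pass. Edem2, a mannosidase-like factor of the same route, had -0.23 (SE 0.08).

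Of 8 tested sensors and their relatives, 1 had a higher mean in enriched mice, Eif2ak3 (0.11, SE 0.06). Creb3l2, a membrane-bound factor related to Atf6, was lower at an unadjusted p under 0.05 (-0.31, SE 0.14), beside 3.82% of all genes. The 7 calnexin cycle enzymes had a median of 0.03, with Uggt1, the glucosyltransferase that returns unfolded glycoproteins to Calr and Canx, at 0.11 (SE 0.07) and Lman1, a cargo receptor, at 0.05 (SE 0.06). The 24 tested targets of the integrated stress response, the Atf4 branch, had a median of 0.02. Its smallest p belonged to the transfer RNA synthetases Sars (0.13, SE 0.05) and Nars (0.09, SE 0.04). Of these Sars was higher at an unadjusted p under 0.05, beside 4.14% of all genes. In saline mice 0 of the 24 were higher and 1 lower at that p, beside 5.43% and 4.60% of all genes. In ethanol mice 3 were higher and 0 lower, beside 2.91% and 2.66%, with a median of 0.04. In the interaction 3 were higher and 0 lower, beside 3.42% and 3.99%, with a median of 0.03. These counts were not recomputed with libraries left out. Of 16 cytosolic heat shock genes, all had higher means, 7 of them at an unadjusted p under 0.05, with a median of 0.15, beside 4.14% of all genes higher at that p. Hspa8 (0.18, SE 0.05) and Dnaja1 (0.27, SE 0.09) had the smallest p. In saline mice 9 of the 16 were positive with a median of 0.05, and 0 were at that p, with Hsp90aa1 (0.22, SE 0.10) and Hspa8 (0.14, SE 0.07) first. In ethanol mice 16 of 16 were positive with a median of 0.27, and 9 were higher at that p beside 2.91% of all genes, with Hsp90ab1 (0.24, SE 0.07) and Dnaja1 (0.39, SE 0.12) first. That count was 3 without enriched ethanol replicate 1, 5 without replicate 2 and 6 without standard ethanol replicate 2. In the interaction 15 of 16 were positive with a median of 0.21, and 2 were higher at that p beside 3.42% of all genes, Bag3 (0.54, SE 0.24) and Hspa1b (1.40, SE 0.60), whose value is uncertain because it has a near-identical copy in Hspa1a. The interaction count was 0 without any 1 of the standard ethanol libraries or without enriched ethanol replicate 1 or 2. It was also 0 without standard saline replicate 3 or enriched saline replicate 1 or 3. It was 7 without enriched ethanol replicate 3. In none of these lists did a gene pass the limma adjusted threshold.

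For ethanol averaged over housing the same lists had medians from -0.02 to 0.04, apart from 0.12 for the cytosolic heat shock genes, of which 15 of 16 had higher means after ethanol and 4 were higher at an unadjusted p under 0.05, beside 3.97% of all genes, led by Hsph1 (0.26, SE 0.07) and Bag3 (0.29, SE 0.12). This averaged count was 1 without enriched ethanol replicate 1 or 2, enriched saline replicate 3 or standard ethanol replicate 3. It was 11 without enriched ethanol replicate 3. In enriched cages 16 of 16 were positive with a median of 0.20, and 8 were higher at an unadjusted p under 0.05 beside 3.85% of all genes, led by Hsph1 (0.39, SE 0.10) and Bag3 (0.56, SE 0.17). That count was 3 without enriched ethanol replicate 1 or 2 and 4 without enriched saline replicate 3. In standard cages 11 of 16 were positive with a median of 0.02 and 0 were at that p, with Hsf1 (-0.16, SE 0.09) and Hsph1 (0.13, SE 0.10) first. In the chaperone list Txndc5, a disulfide isomerase, had -0.14 (SE 0.05) and Sil1, the exchange factor of Hspa5, -0.15 (SE 0.08). In the degradation list Edem2 had -0.19 (SE 0.08) and Edem1 0.28 (SE 0.12). Atf6b and Creb3l2 led the sensors with 0.11 (SE 0.06) and 0.22 (SE 0.14), and Uggt1 and Uggt2 the calnexin cycle with 0.11 (SE 0.07) and -0.10 (SE 0.08). Ddit4, an inhibitor of growth signalling, and Ppp1r15b, a phosphatase subunit that lifts the translation block, led the stress targets with 0.30 (SE 0.11) and 0.10 (SE 0.05). None of these genes passed.

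The likeness of profiles over the 12 libraries was measured by Pearson's r of log2 values, as a description over libraries that share groups. The genes outside the 10 whose profile was most like the mean standardised profile of the 10 were Ndel1 (r = 0.928), Ranbp2 (0.905), Bag6 (0.892), Stip1 (0.881), Mlec (0.872), Akap17b (0.87), Stx8 (0.865) and Ptges3 (0.857). Among all genes, those most like Hspa5 were Pdia4 (r = 0.926), Bag6 (0.88), Pdia6 (0.873), Dnajc3 (0.869) and Hspb1 (0.867), so that 2 of the 5 were members. Pdia3 ranked 7 and Xbp1 32 in likeness to Hspa5, Calr 59 and Hsp90b1 184. Canx, Ddit3 and Atf4 ranked 792, 824 and 985, with r of 0.50, 0.50 and 0.47. Profiles of the 10 genes thus ranged from near-parallel, for Hspa5 and Pdia4, to loosely related.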

How the data were processed

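Stranded total RNA libraries were made from hippocampus after ribosomal RNA depletion, per the labels' protocols. The submitters' processing notes name CASAVA, kallisto, sleuth and mm10, without versions or roles. The authors deposited 1 table whose file name says TPM. Its columns sum to between 973187 and 1024536, so the deposited values were used as a signal proportional to TPM within a library, not as the plain TPM that the design had assumed, and the test is the same. Depth is unknown, so no counting intervals are given. Gene symbols and GRCm38 entries come from GENCODE M21 (35827 of 36119 identifiers matched). The 12 columns were matched by name, with 0 left over.

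Values were analysed as log2(level + 0.5) for 14947 genes with a mean of at least 1, which understates changes of low genes. All 10 members passed this filter. limma 3.58.1 in R 4.3.3 fitted 4 group means with a mean-variance trend (8 residual degrees of freedom) and 7 two-sided contrasts, adjusted by Benjamini-Hochberg over all genes tested. The fit was tested on simulated data with independent noise and changes larger than those of the members. That test does not bear on changes of the members' size or on effects of single libraries. The members and lists were chosen with earlier results of these data known. Named genes are the members, the 2 smallest p per pathway list in both averaged comparisons (and, for the chaperone and heat shock lists, within each exposure or housing where these are described) and the most similar profiles. Alternatives covered pseudocount, filter, scaling, limma settings, a replicate block and leaving out each library. No protein sequences were used here.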

Additional observations from a re-analysis of the deposited data

How the results depend on the processing

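No member passed the adjusted threshold in any comparison under any alternative, leaving out each library in turn included. Of 467 recomputed values of the 44 member fold changes given, libraries left out aside, 1 changed direction when rounded to 2 decimals: Xbp1 for enrichment in saline mice was 0.0154 with columns rescaled to a common sum. No pairing of samples by replicate number was seen. Same-numbered libraries of different groups had deviations correlated at -0.15 to 0.06, with 0 of 18 pairs over 0.1. Of 12 libraries, 2 correlated best with their own number. With 3 libraries a group and no litter in the labels, this cannot exclude a pairing. The replicate block left 1 called gene for ethanol averaged over housing and 0 members at an unadjusted p under 0.05 there, and moved no other count by over 1.5 times.

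Counts of all genes called, in the order ethanol in standard cages, ethanol in enriched cages, enrichment in saline mice, enrichment in ethanol mice, interaction, ethanol averaged and enrichment averaged, were 2, 0, 4, 1, 2, 2 and 3. Without the filter on low values they were 7, 1, 7, 2, 4, 6 and 6. With a filter at a mean of 5 they were 0, 0, 1, 0, 0, 0 and 0. A pseudocount of 0.1 gave 0 for ethanol in standard cages, 2 for ethanol in enriched cages and 0 for enrichment in ethanol mice, the interaction and ethanol averaged. For enrichment in saline mice, a pseudocount of 1 gave 1, and median-ratio scaling, robust empirical Bayes and array weights gave 2 each. With only the groups compared in the fit, the 4 comparisons of 2 groups gave 4, 1, 8 and 4. Leaving out 1 library gave ranges of 1 to 7, 0 to 15, 1 to 20, 0 to 21, 1 to 12, 1 to 10 and 1 to 11.

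Members at an unadjusted p under 0.05, a count chosen after seeing the data, ranged with 1 library left out over 0 to 2 for ethanol in enriched cages, 1 to 4 for enrichment in saline mice, 0 to 6 for enrichment in ethanol mice, 0 to 1 for the interaction, 0 to 2 for ethanol averaged and 5 to 8 for enrichment averaged. Array weights gave 1 for ethanol in standard cages, and a filter at 5 or no trend gave 0 for ethanol averaged. Of the 44 member fold changes recomputed, those that crossed 0 when a library was left out ran from -0.0151 to 0.33 (Hspa5), -0.0114 to 0.17 (Pdia3), -0.0232 to 0.20 (Pdia4), -0.0574 to 0.0344 (Xbp1) and -0.15 to 0.0683 (Atf4) for enrichment in saline mice, from -0.16 to 0.0077 for Ddit3 after ethanol in enriched cages, and from -0.19 to 0.0064 for Hsp90b1 in the interaction. Further members changed sign outside these 44. Without enriched saline replicate 1, positive members went from 9 to 6 for ethanol in enriched cages and from 7 to 4 for the interaction. Without standard saline replicate 3 they went from 6 to 4 for ethanol in standard cages. The cause was not tested. Depth is unknown, so what it limits cannot be stated, and 3 libraries a group bound the precision.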
